A study of Mus musculus with 32 samples.

Results

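Immune and inflammatory gene families that sit in clusters in the mouse genome were followed through the open chromatin of astrocytes of the orbitofrontal cortex (OFC). A peak was taken as a member when it lay on 1 of the 19 autosomes and when the gene listed as nearest to it belonged to the class I and related MHC genes (H2-), the killer cell lectin-like receptors (Klr), the interferons and interferon-induced genes (Ifn, Ifi), the guanylate-binding proteins (Gbp), the chemokines and their receptors (Ccl, Ccr, Cxc), the Toll-like receptors (Tlr), the Nlrp and Naip genes, the defensins (Def) or the interleukins and their receptors (Il followed by a digit), or was C4a, C4b, Cd200 or Cd200r1 to Cd200r4. Of 13794 autosomal peaks, 173 were members (1.25%, 95% Wilson interval 1.08 to 1.45%), and the whole series held 16174 peaks. The members had 39 nearest genes, and chaining members that lay within 300 kb of each other gave 22 clusters with a total span of 4.80 Mb. Each cluster runs from the first to the last base of its members. A list whose peak sets both ends therefore covers the whole cluster by construction.

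ATAC-seq, in which the Tn5 transposase cuts accessible DNA, was run on astrocytes isolated with ACSA-2 magnetic beads (MACs) from male C57BL/6J mice, with 3 mice pooled in each of 32 samples. All mice carried an AAV6 vector in the OFC whose insert was driven by the astrocyte promoter GFAP. In the knockdown experiment, GFP mice received a control vector and Zbt-KD mice a microRNA against Zbtb7a, a zinc finger transcription factor, and each virus was followed by either no defeat (control) or 10 days of chronic social defeat stress (CSDS), which gave 4 groups of 5 samples. In the overexpression experiment, an empty GFP vector (GFP SSDS) was compared with ZBTB7A overexpression (ZBT-OE SSDS) with 6 samples each, and by the study's methods both groups underwent 1 day of subthreshold defeat (SSDS), so that an unstressed arm was not analysed here. The methods give purchase at 6 to 12 weeks and an age of 8 weeks for the SSDS mice and for a CSDS cohort, without saying whether the latter gave the ATAC-seq samples. Each group has 1 peak list for all its samples together, so that no spread between samples could be computed and no difference between lists was tested. A count below compares lists, and its interval covers counting error only. The interval treats peaks as independent, which neighbouring peaks of 1 cluster are not.

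Many of these families grew by tandem duplication, so that near-identical genes and their remnants lie side by side. Type I interferons signal through a shared receptor and switch on interferon-induced genes such as Ifi44 and Ifi35, class I MHC molecules present peptides to T cells and are read by lectin-like receptors of natural killer cells, and chemokine receptors guide the migration of leukocytes. Astrocytes express class I MHC molecules, complement C4 and chemokines during inflammation, whereas defensins are best known from Paneth cells of the gut and most Klra genes from natural killer cells.

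The lists differed in grain, which touches every count below. The narrowest peak measured 687 bp (GFP control) and 1174 bp (GFP CSDS), 6425 bp and 6507 bp in the unstressed and stressed Zbt-KD lists, 8473 bp in GFP SSDS and 20269 bp in ZBT-OE SSDS, and the smallest gap between neighbouring peaks was nearly the same as the narrowest peak in each list. A wide open domain thus appears as many peaks in the GFP control list and as 1 peak in the ZBT-OE SSDS list, so that lengths covered are given beside numbers of peaks. Length is not free of grain either. Over all autosomal peaks, covered length rose in the order of the smallest gap, from 144 Mb (GFP control) to 226 Mb (ZBT-OE SSDS). The peaks gave no check of the labels. No list had a peak over the body of Zbtb7a, the targeted gene, whose nearest peak lay 97.9 kb away in ZBT-OE SSDS. No list overlapped any of 10 astrocyte, 10 microglia or 10 oligodendrocyte marker genes. Of 10 neuron markers, only Map2 was overlapped, in 4 lists. Of 10 lymphocyte markers, only Ncr1, which stands for natural killer cells, was overlapped, in 3 lists. The peaks thus did not show the cell type on its defining genes.

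The promoters below are shown because they are where a member peak met the start of a gene. They are the interferon genes at which narrow peaks were centred and a defensin promoter that lay inside a peak of every list. The starts of Ifi35 and Cd200, which lay inside a peak in few lists, are added. All are RefSeq windows of GRCm38.p6, 250 bases before and 50 bases after the transcription start site (TSS), written along the gene's strand. They lie at chr4:88522745-88523044 on the minus strand (Ifnb1), chr4:88571749-88572048 on the minus strand (Ifna14), chr4:88558196-88558495 on the minus strand (Ifna15), chr8:21427178-21427477 on the plus strand (Defa36), chr11:101448162-101448461 on the plus strand (Ifi35) and chr16:45409004-45409303 on the minus strand (Cd200). Capitals mark matches, on either strand, to an NF-kB motif (GGGA and TTCC with any 2 bases between), an interferon-stimulated response element (ISRE, TTTC and TTTC with any 2 bases between), a gamma-activated sequence (GAS, TTCNNNGAA) or a TATA box (TATAAA), and no capitals overlap in these windows.
Ifnb1: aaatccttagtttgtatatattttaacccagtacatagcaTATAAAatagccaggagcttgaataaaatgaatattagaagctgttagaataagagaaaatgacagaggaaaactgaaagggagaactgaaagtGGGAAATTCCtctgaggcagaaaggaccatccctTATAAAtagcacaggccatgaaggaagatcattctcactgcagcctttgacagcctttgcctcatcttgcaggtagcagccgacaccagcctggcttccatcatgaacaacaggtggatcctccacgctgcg
Ifna14: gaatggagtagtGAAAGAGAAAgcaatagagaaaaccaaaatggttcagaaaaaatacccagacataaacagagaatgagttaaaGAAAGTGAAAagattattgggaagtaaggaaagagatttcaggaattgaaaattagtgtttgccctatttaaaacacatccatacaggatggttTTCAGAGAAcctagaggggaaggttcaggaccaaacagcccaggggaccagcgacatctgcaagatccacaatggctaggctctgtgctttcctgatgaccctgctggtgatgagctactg
Ifna15: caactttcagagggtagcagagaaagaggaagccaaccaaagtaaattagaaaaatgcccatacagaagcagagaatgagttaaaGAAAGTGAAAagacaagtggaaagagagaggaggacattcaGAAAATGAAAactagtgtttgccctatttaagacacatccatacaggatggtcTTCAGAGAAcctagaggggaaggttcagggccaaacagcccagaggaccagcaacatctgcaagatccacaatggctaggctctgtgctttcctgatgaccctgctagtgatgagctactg
Defa36: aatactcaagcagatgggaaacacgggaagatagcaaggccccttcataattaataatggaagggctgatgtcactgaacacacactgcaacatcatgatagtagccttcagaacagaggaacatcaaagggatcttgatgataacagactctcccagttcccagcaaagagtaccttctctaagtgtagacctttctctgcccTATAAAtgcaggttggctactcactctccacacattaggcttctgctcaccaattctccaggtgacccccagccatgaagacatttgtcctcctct
Ifi35: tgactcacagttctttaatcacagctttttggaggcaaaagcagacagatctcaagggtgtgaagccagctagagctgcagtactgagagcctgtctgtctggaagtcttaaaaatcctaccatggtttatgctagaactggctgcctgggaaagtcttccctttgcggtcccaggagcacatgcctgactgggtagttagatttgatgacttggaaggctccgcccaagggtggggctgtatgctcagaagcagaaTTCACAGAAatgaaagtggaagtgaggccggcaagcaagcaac
Cd200: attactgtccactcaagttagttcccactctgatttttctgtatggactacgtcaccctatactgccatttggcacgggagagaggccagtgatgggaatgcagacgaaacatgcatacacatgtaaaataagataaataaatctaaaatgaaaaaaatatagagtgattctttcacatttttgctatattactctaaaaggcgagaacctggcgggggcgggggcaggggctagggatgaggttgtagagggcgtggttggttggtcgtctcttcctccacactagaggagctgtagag

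With the first transcribed base counted as 0, the NF-kB match of Ifnb1 (interferon beta) starts at base -116, and its TATA matches start at bases -210 and -82. Ifna14 holds ISRE matches from -238 and -165, and Ifna15 from -165 and -124, and both hold a GAS match from -71. Ifi35 has a GAS match that starts at base 7, Defa36 a TATA match from -46, and the Cd200 window none of the 4 motifs. The Ifna14 and Ifna15 windows were 86.7% identical, and the Defa36 window was identical to that of Defa37, so that reads from it cannot be told apart. Of 31365 autosomal promoter windows, 3.45% held the ISRE letters, 8.34% the GAS letters, 1.45% the NF-kB letters and 13.6% the TATA letters. Of 343 windows of the immune families, 12.8% held ISRE, 14.3% GAS, 4.96% NF-kB and 27.7% TATA letters. The 49 immune windows that met a peak in any list held ISRE in 6 (12.2%), GAS in 8 (16.3%), NF-kB in 1 (2.04%) and TATA in 17 (34.7%), which lies near the shares over all immune windows. A match is a description of the letters and not of a bound site.

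Members made up 65 of 5416 autosomal peaks in GFP control (1.20%), 41 of 3410 in GFP CSDS (1.20%), 25 of 1302 in Zbt-KD control (1.92%), 16 of 1184 in Zbt-KD CSDS (1.35%), 11 of 1283 in GFP SSDS (0.857%) and 15 of 1199 in ZBT-OE SSDS (1.25%). The number of peaks was highest in the list of the finest grain, while the length was not: member peaks covered 1.71 Mb, 1.56 Mb, 2.03 Mb, 1.80 Mb, 3.40 Mb and 3.27 Mb in the same order. All peaks within the 22 clusters, whatever their nearest gene, covered 44.5%, 52.9%, 56.8%, 52.8%, 80.6% and 86.9% of the clusters' span. Both lists of the overexpression experiment thus covered more of these clusters than the 4 lists of the knockdown experiment, and they also covered more of the autosomes, with 218 Mb and 226 Mb against 144 Mb to 176 Mb over all peaks. The clusters' span was drawn from the members themselves, so that lists with the widest members set part of it. The experiments are separate cohorts and their lists differ in grain, so that cohort, stress protocol and grain cannot be told apart.

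The families were unequal. In peaks over all lists, killer cell lectin-like receptors were nearest to 52 of the 173 peaks (30.1%), interferons to 31 (17.9%), defensins to 24 (13.9%), interferon-induced genes to 17 (9.83%), chemokine receptors to 14 (8.09%) and MHC genes to 9 (5.20%). Nlrp and Cd200 had 6 peaks each, Toll-like receptors and interleukins 4 each, Naip 3, chemokine ligands 2 and C4 1. No peak was nearest to a guanylate-binding protein gene. This order depends on the finest list: without GFP control, interferons kept 21 peaks, defensins 18 and Klr 17. By length, defensins led in 5 lists, with 518 kb to 1040 kb, and Klr in GFP SSDS, with 1170 kb, while interferon peaks covered 25.9 kb to 302 kb. Of the 39 genes, 18 were named in 1 list and 3 in all 6 lists, which were H2-M10.4, Ifnb1 and Klra2.

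Member peaks lay closer to a TSS than peaks in general. Their median absolute distance from peak centre to TSS was 28.1 kb, against 127 kb over all autosomal peaks, and 49 members (28.3%) were centred within 10 kb of a TSS, against 12.5% of all. They were not promoter peaks: 142 (82.1%) were intergenic, 18 intronic, 5 at a transcription end, 4 exonic and 4 (2.31%) promoter, against 77.7% intergenic and 1.07% promoter over all. Olfactory and vomeronasal receptor genes, another large group of tandem families, had 781 peaks at a median of 14.6 kb. The member median ranged from 15.9 kb in GFP CSDS to 49.0 kb in Zbt-KD CSDS and was below that of all peaks in each of the 6 lists. The peak centre lay in an L1 element for 63 members (36.4%, against 30.2% of all) and in an LTR element for 29 (16.8%, against 15.7%). The L1 excess came from GFP control (52.3%, against 32.6%), and without that list the shares were 26.9% of members and 28.7% of all. The median fold enrichment, the peak caller's ratio of signal to background, was the same to within 0.01 in members and all peaks of 4 lists, lower in members in Zbt-KD control (1.72 against 1.79) and higher in GFP SSDS (2.55 against 1.92).

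**Figure D1:**
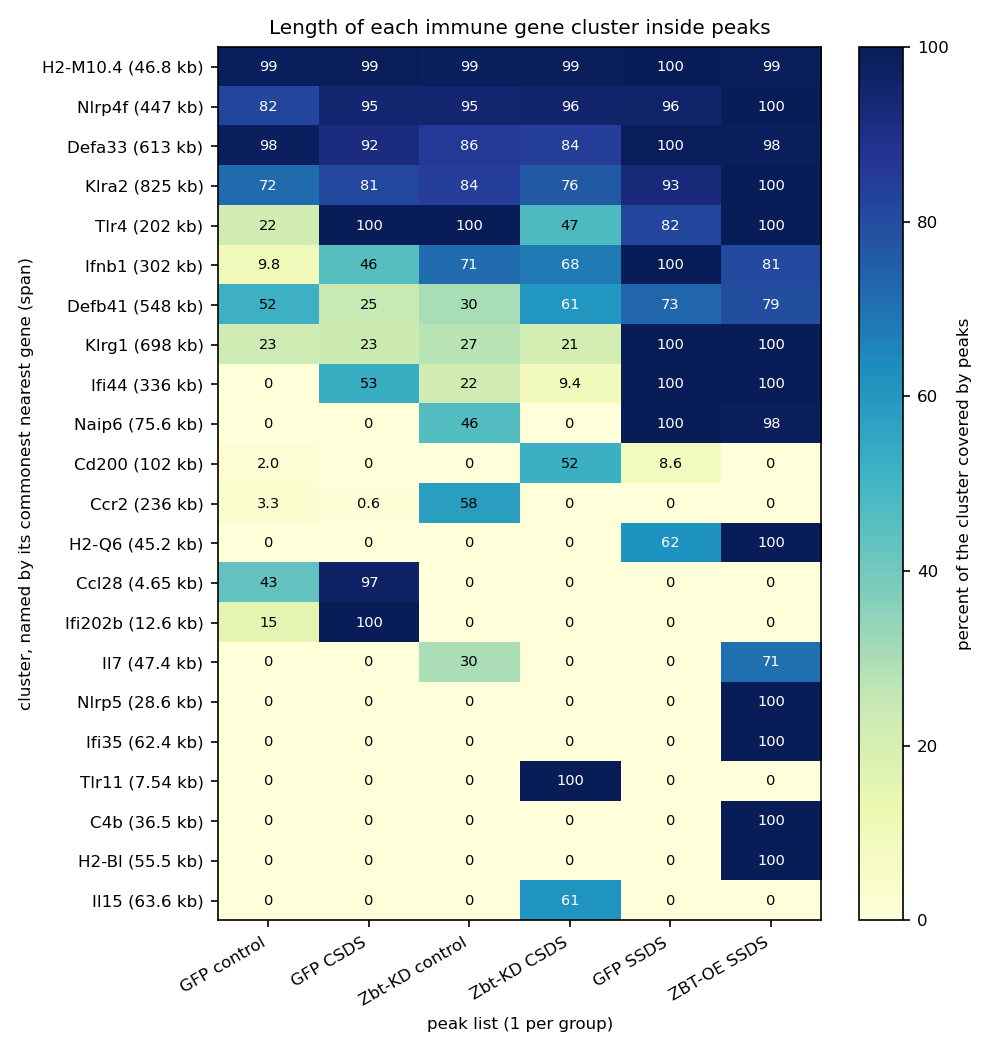
Percent of each of the 22 clusters (rows, named by the commonest nearest gene, with the span in kb) covered by any peak of each list (columns). H2-M10.4, Nlrp4f, Defa33 and Klra2 are dark in every list, Ccr2 and Cd200 are covered past 50% in 1 Zbt-KD list each, and Nlrp5, Ifi35, C4b and H2-Bl are covered in ZBT-OE SSDS alone.

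The heat map of cluster coverage sorts the clusters by how many lists reached them. A peak of any kind was present in all 6 lists in 8 clusters, in 5 lists in 1, in 3 lists in 3, in 2 lists in 4 and in 1 list in 6. Where all peaks were merged into regions, 8 of 37 member regions (21.6%, interval 11.4 to 37.2%) held peaks of all 6 lists, against 21.7% of all 2176 autosomal regions, so that the members shared regions across groups about as often as peaks in general.

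The type I interferon cluster on chromosome 4 was open in every list, with different extents. Its 302 kb span runs from 88365949 to 88668261 (mm10) and includes Ifnb1, Ifna15, Ifna14, Ifna9, Ifna12 and Ifna13. Peaks covered 9.75% of it in GFP control, 45.5% in GFP CSDS, 71.2% in Zbt-KD control, 68.1% in Zbt-KD CSDS, 100% in GFP SSDS and 80.6% in ZBT-OE SSDS. Coverage was thus lowest in the GFP control list and highest in the GFP SSDS list, and the Zbt-KD lists, with and without CSDS, lay within a few percent of each other. The lists of finest grain, GFP control and GFP CSDS, had the lowest coverage, so that grain and group cannot be told apart here. With all lists brought to the coarsest grain (below), no domain of this cluster was called opened or closed in any comparison. The GFP SSDS peak itself sets both ends of the span, so that its 100% was fixed by the definition. The members there numbered 10 in GFP control and 17 in GFP CSDS and 1 in each of the other lists. The highest fold enrichment of any peak in the cluster was 1.82, 1.95, 2.02, 1.81, 2.33 and 2.50 in the same order.

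At single interferon genes, the narrow lists placed peaks on the promoters printed above. In GFP control, a peak of 975 bp at chr4:88522547-88523521 was centred at -240 bp from the Ifnb1 TSS with a fold enrichment of 1.62. In GFP CSDS, a peak of 1945 bp was centred 220 bp downstream of the same TSS, again with 1.62. The Ifna15 promoter lay under a GFP CSDS peak of 1361 bp centred at -129 bp, and the Ifna14 promoter under a GFP CSDS peak of 10165 bp centred at -149 bp with a fold enrichment of 1.80. The TSS of Ifnb1 and Ifna14 lay inside a peak of all 6 lists, that of Ifna15 inside 5 (not GFP control), those of Ifna9 and Ifna12 inside 3 (GFP CSDS, GFP SSDS and ZBT-OE SSDS), and that of Ifna13 in GFP SSDS alone. Ifnar1, a chain of the receptor that all type I interferons share, had its TSS in a ZBT-OE SSDS peak only.

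**Figure D2:**
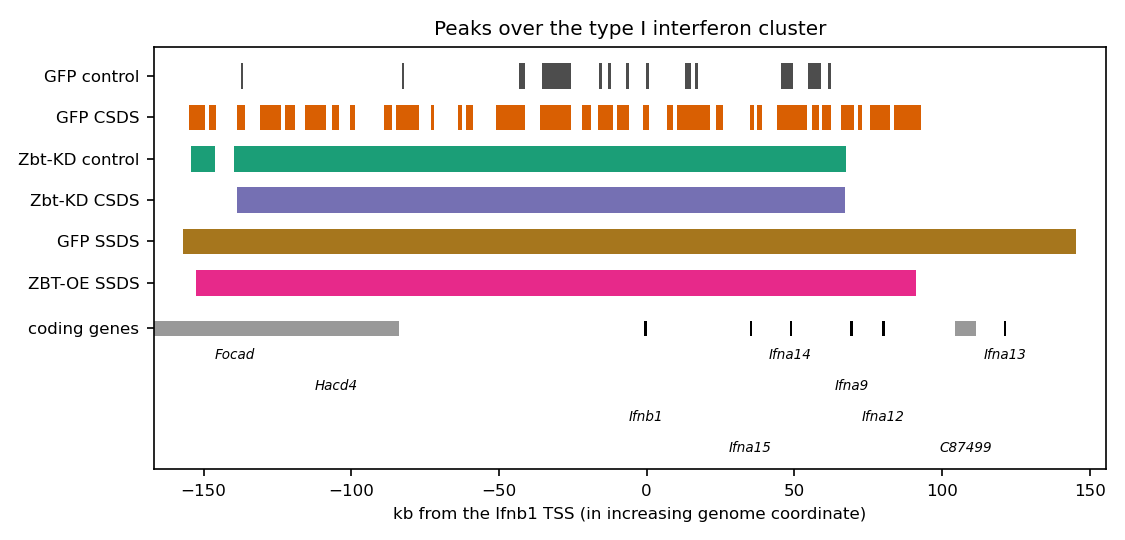
Peaks of each list (coloured bars, 1 row per list) and coding genes (bottom row; black for family genes, grey for others) around Ifnb1, with the distance from the Ifnb1 TSS in kb on the x axis. GFP control shows narrow separate peaks, GFP CSDS a denser series, and the other 4 lists long peaks that cross Ifnb1, Ifna15 and Ifna14.

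Interferon-induced genes were reached in 3 clusters. The Ifi44 cluster on chromosome 3 (336 kb, with Ifi44 and Ifi44l, induced by type I interferon) was covered by 0% in GFP control, 52.6% in GFP CSDS, 22.0% in Zbt-KD control, 9.36% in Zbt-KD CSDS, 100% in GFP SSDS and 99.8% in ZBT-OE SSDS. GFP control was the only list without a peak there, although it has the narrowest peaks. The highest fold enrichment was 2.15, 1.92, 1.71, 3.02 and 3.40 in the 5 lists with a peak. The TSS of Ifi44 lay inside a peak in GFP CSDS, Zbt-KD control and both SSDS lists. Ifi35, an interferon-induced leucine zipper protein, was overlapped in ZBT-OE SSDS alone, by a peak of 62.4 kb on chromosome 11 centred at -8 bp from its TSS with a fold enrichment of 3.11. That peak holds 8 coding genes, among them Rpl27, Vat1 and Rnd2, so that Ifi35 is 1 of several genes it spans. Ifi202b, of the HIN-200 family, had 2 peaks in GFP control (15.3% of its 12.6 kb cluster), 1 peak covering the whole cluster in GFP CSDS and none elsewhere.

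The peaks named for MHC genes on chromosome 17 split into a constant and a variable part. H2-M10.4, a nonclassical class I gene of the M10 group, was nearest to 1 peak of every list at -37.5 to -38.0 kb from its TSS. These peaks covered 98.6%, 99.4%, 98.7%, 99.1%, 99.8% and 98.9% of their 46.8 kb cluster at chr17:36476560-36523386, with fold enrichments of 2.82, 2.83, 2.74, 2.69, 2.83 and 2.50. This was the narrowest range of coverage among the 8 clusters reached by all 6 lists. The H2-M10.4 cluster holds 0 coding genes, and no list had a peak over the body of H2-M10.4 itself. The H2-Q6 cluster (45.2 kb, with H2-Q6 and H2-Q7 of the class Ib Q group) was covered in the overexpression experiment only, by 62.0% in GFP SSDS and 100% in ZBT-OE SSDS, with the TSS of both genes inside a peak. H2-Bl had a peak in ZBT-OE SSDS alone, 55.5 kb wide with a fold enrichment of 1.83. The TSS of H2-T23, the class Ib gene for Qa-1, lay 33.3 kb from the nearest ZBT-OE SSDS peak and 444 kb from the nearest peak of each other list. H2-M2 was not the listed nearest gene of any peak, and its TSS lay inside a peak in all 6 lists.

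C4b, which encodes complement component C4, was named in ZBT-OE SSDS alone. Its peak at chr17:34743889-34780374 is 36.5 kb wide with a fold enrichment of 1.51, begins 7 bp from the C4b TSS and does not overlap the gene body. The TSS of C4a, its near-identical copy, lay 43.1 kb from that peak.

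The chemokine receptor cluster on chromosome 9 was covered widely in the Zbt-KD control list alone. The 236 kb span includes Ccr1, Ccr1l1, Ccr3 and Ccr2, receptors of inflammatory chemokines on monocytes and T cells. Peaks covered 3.27% in GFP control, 0.624% in GFP CSDS and 57.9% in Zbt-KD control, while Zbt-KD CSDS, GFP SSDS and ZBT-OE SSDS had no peak. In length, this was 7.72 kb in 6 peaks, 1.47 kb in 1 peak and 136 kb in 7 peaks. The Zbt-KD control and Zbt-KD CSDS lists have nearly the same narrowest peak. Their depth is unknown, and the cause of the difference between them was not tested. Of the 6 GFP control peaks, 3 were at least as wide as the narrowest GFP CSDS peak, and all were narrower than any peak of the Zbt-KD and SSDS lists. The 7 Zbt-KD control peaks had fold enrichments of 1.58 to 1.72, all in the lower 50% of their list, and with only the upper 50% of each list kept, 0 of 17 chemokine receptor genes were overlapped in any list. The TSS of Ccr1, Ccr1l1 and Ccr2 lay inside a peak in Zbt-KD control only, and the gene body of Ccr2 was overlapped in GFP control as well.

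Cd200, a membrane protein of neurons and other cells whose receptor restrains microglia and macrophages, had the opposite pattern between the Zbt-KD lists. Its 102 kb cluster on chromosome 16 was covered by 2.03% in GFP control, 51.8% in Zbt-KD CSDS and 8.64% in GFP SSDS, and by no peak in GFP CSDS, Zbt-KD control or ZBT-OE SSDS. A Zbt-KD CSDS peak sets the cluster's lower end in genome coordinate. A Zbt-KD control peak lies just outside that end, 85.3 kb from the TSS, so that its absence from the cluster rests on the definition. The 3 Zbt-KD CSDS peaks were 14.8 kb, 10.3 kb and 27.8 kb wide, with fold enrichments of 2.57, 1.81 and 1.78 and centres at 54.4 kb, 77.8 kb and -5.16 kb from the TSS. The Cd200 TSS lay inside a peak in Zbt-KD CSDS and GFP SSDS and elsewhere away from the nearest peak by 18.4 kb (GFP control), 85.3 kb (Zbt-KD control), 137 kb (GFP CSDS) and 1900 kb (ZBT-OE SSDS). None of its receptor genes Cd200r1 to Cd200r4 was overlapped in any list. With only the upper 50% of each list by fold enrichment kept, 0 of these 5 genes were overlapped in any list, Cd200 included.

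**Figure D3:**
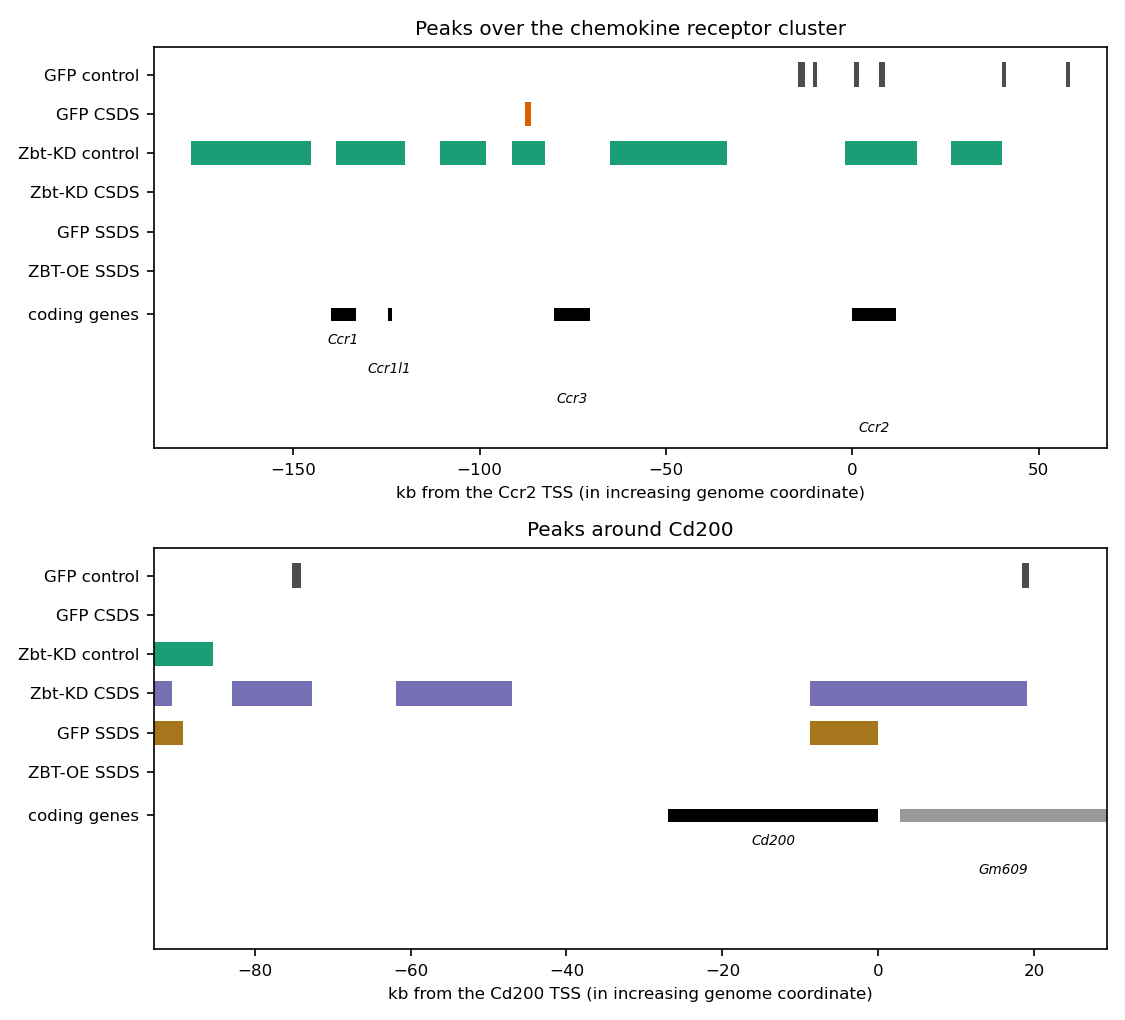
Peaks of each list (bars, 1 row per list) and coding genes around Ccr2 (top panel, where Ccr1, Ccr1l1, Ccr3 and Ccr2 are drawn) and Cd200 (bottom panel), with the distance from the TSS in kb on the x axis. The chemokine receptor cluster holds 7 Zbt-KD control peaks and no Zbt-KD CSDS peak, and the Cd200 cluster 3 Zbt-KD CSDS peaks and no Zbt-KD control peak. The left margin of the bottom panel, outside the Cd200 cluster, also shows Zbt-KD control, Zbt-KD CSDS and GFP SSDS peaks, of which the Zbt-KD control peak ends at -85.3 kb.

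The lectin-like receptors gave the most peaks, from 3 genes. Klra2, of the Ly49 receptor family, was nearest to 41 peaks and Klra1 to 10, in an 825 kb stretch of chromosome 6 whose only coding family gene is Klra2. The members there numbered 35 in GFP control, 9 in GFP CSDS, 2 in Zbt-KD control, 3 in Zbt-KD CSDS and 1 in each SSDS list. Coverage did not fall with the number of peaks: it was 71.5%, 81.3%, 84.1%, 76.4%, 93.3% and 100% in the same order. The Klra2 TSS lay inside a peak in all 6 lists. Peaks named for Klra1 were centred 249 kb or more from its TSS. Klrg1, a receptor for cadherins, was named only in GFP SSDS, where that peak spans the whole 698 kb cluster. Peaks with other nearest genes covered 100% of it in ZBT-OE SSDS and 20.9% to 27.4% in the 4 knockdown-experiment lists.

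Defensins had the highest fold enrichment of the 22 clusters. The alpha-defensin cluster on chromosome 8 (613 kb, antimicrobial peptides of Paneth cells) was covered by 98.3%, 91.6%, 86.0%, 84.5%, 99.6% and 98.1% in the 6 lists, and its strongest peak had a fold enrichment of 6.56, 6.76, 5.83, 6.0, 7.10 and 7.09. Of 66 coding Def genes, 14 were overlapped in every list (21.2%). The sequence there is repeated: 90.0% of its 31-mers sampled every 200 bp occur more than once in the genome, with a median of 4.00 copies, and the authors kept uniquely mapped reads. The cluster named for the beta-defensin gene Defb41 on chromosome 1 holds 0 coding genes, so that Defb41 itself lies outside it. It was covered by 51.5%, 24.8%, 30.3%, 60.7%, 72.7% and 79.4%, and all its member peaks were centred 68.5 kb or more from the Defb41 TSS.

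Sensors of microbial products were covered unevenly. Nlrp4f, a member of the NLR family expressed in oocytes, lay in a 447 kb cluster that was 82.0% to 100% covered in the 6 lists, with its TSS in a peak of each. The cluster named for Tlr4 (202 kb, with 0 coding genes) was covered by 22.1%, 100%, 100%, 47.4%, 82.1% and 100%. Its nearest member peak was centred 171 kb from Tlr4, the receptor for bacterial lipopolysaccharide. Naip6, a sensor of flagellin, had its TSS in a peak in Zbt-KD control and both SSDS lists, with 46.4%, 100% and 98.4% of its 75.6 kb cluster covered. Tlr11, a receptor for profilin, had a peak of 7.54 kb over its TSS in Zbt-KD CSDS alone, with a fold enrichment of 1.60. Nlrp5, a maternal-effect gene of the oocyte, was covered in ZBT-OE SSDS alone, with a fold enrichment of 1.53.

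Cytokines and chemokine ligands were few. Il7, which sustains lymphocytes, was named in Zbt-KD control (30.0% of 47.4 kb) and ZBT-OE SSDS (70.6%), centred 116 kb or more from its TSS. Il15, a growth factor of natural killer cells, was named for 2 peaks in Zbt-KD CSDS, centred 126 kb or more from its TSS. Ccl28, a mucosal chemokine, had 1 peak of 2.01 kb in GFP control and 1 of 4.50 kb in GFP CSDS. Cxcl12, a chemokine that astrocytes make, was not a listed nearest gene, and its nearest peak lay 220 kb away in GFP SSDS and 222 kb away in ZBT-OE SSDS. Cxcl13 and Ccl21b, which guide lymphocytes, and Nlrp2 were also not named for any peak, and the TSS of each lay inside a peak of all 6 lists.

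For stress in GFP mice, a member peak was called opened when it had no overlapping peak in the reference list and closed in the reverse case. Of the GFP CSDS members, 19 of 41 (46.3%, interval 32.1 to 61.3%) had no GFP control peak, against 48.2% of all peaks, and of the GFP control members 18 of 65 (27.7%) had no GFP CSDS peak, against 29.2% of all. The members thus followed the whole lists. The opened members with the highest fold enrichment were Ifi44 peaks of 91.9 kb (2.15) and 43.2 kb (1.94) and an Ifi44l peak of 1.51 kb (1.85). The closed ones were a Klra1 peak of 13.2 kb (1.86), a Cd200 peak of 1.14 kb and a Ccr2 peak of 1.93 kb (both 1.72). Of the 18 closed peaks, 10 were as wide as the narrowest GFP CSDS peak or wider.

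For Zbt-KD in unstressed mice, 12 of 25 Zbt-KD control members (48.0%, interval 30.0 to 66.5%) had no GFP control peak, against 31.0% of all, and 18 of 65 GFP control members (27.7%) had no Zbt-KD control peak, against 28.8%. The opened members were led by Ifi44 peaks of 25.4 kb (1.92) and 26.4 kb (1.82) and a Naip6 peak of 35.1 kb (1.83). The closed ones were Klra2 (2.28 kb, 1.73), Ifi202b (1.23 kb, 1.73) and Cd200 (1.14 kb, 1.72), and 0 of the 18 closed peaks reached the width of the narrowest Zbt-KD control peak, so that closing and grain cannot be told apart here.

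For Zbt-KD in stressed mice, 6 of 16 Zbt-KD CSDS members (37.5%) had no GFP CSDS peak, against 22.0% of all, and 18 of 41 GFP CSDS members (43.9%) had no Zbt-KD CSDS peak, against 38.3%. The 3 Cd200 peaks led the opened members. The closed ones were led by Ifi44l (1.51 kb, 1.85), Ifi202b (12.6 kb, 1.82) and Klra2 (6.58 kb, 1.74). Of the 18 closed peaks, 5 were as wide as the narrowest Zbt-KD CSDS peak or wider.

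For stress in Zbt-KD mice, 6 of 16 Zbt-KD CSDS members (37.5%) had no Zbt-KD control peak, against 27.6% of all, and the 3 Cd200 peaks led here too. In the other direction, 11 of 25 Zbt-KD control members (44.0%, interval 26.7 to 62.9%) had no Zbt-KD CSDS peak, against 24.3% of all. This was the only comparison in which the share over all peaks lay outside the members' interval. Of the 11 peaks, 7 lay in the chemokine receptor cluster and the rest in the Ifi44, Naip6 and Il7 clusters. Neighbouring peaks are not independent, so that the interval is not a test. All 11 were wide enough to be listed in Zbt-KD CSDS. They were led by Naip6 (35.1 kb, 1.83), Il7 (14.2 kb, 1.72) and Ccr3 (8.90 kb, 1.72).

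For ZBT-OE in SSDS mice, 6 of 15 members (40.0%) had no GFP SSDS peak, against 31.4% of all, and 1 of 11 GFP SSDS members (9.09%, interval 1.62 to 37.7%) had no ZBT-OE SSDS peak, against 27.7%. The opened members were led by Ifi35 (62.4 kb, 3.11), H2-Bl (55.5 kb, 1.83) and Defb41 (20.5 kb, 1.65), and the closed member was the Cd200 peak of 8.84 kb (1.61), centred in an intron 4.41 kb from the TSS and narrower than any ZBT-OE SSDS peak. Each list of the knockdown experiment enters more than 1 of these comparisons, so that they are not independent.

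**Figure D4:**
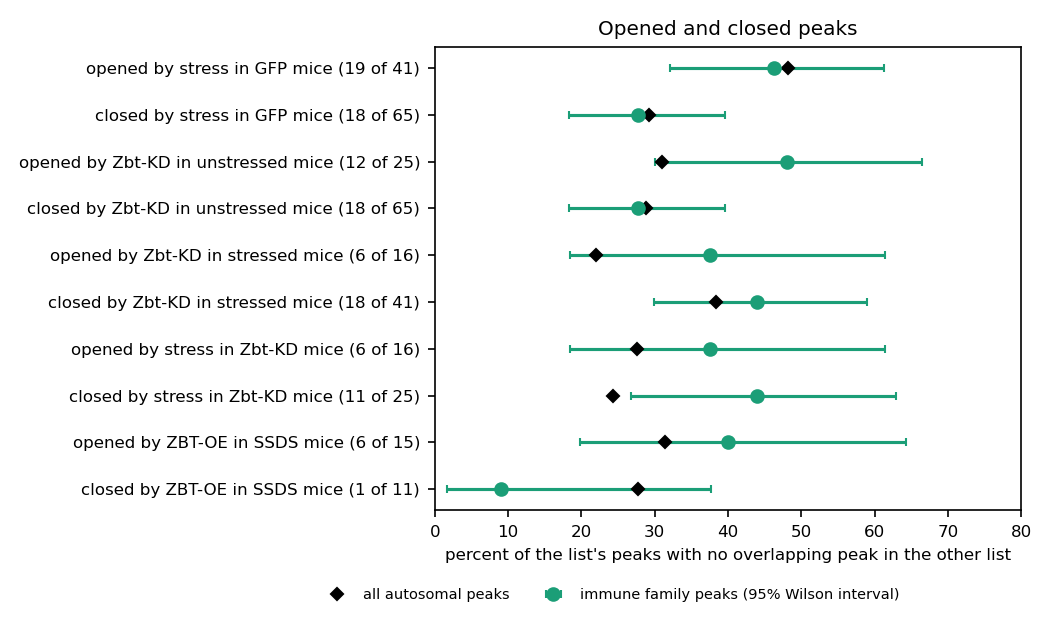
Share of immune family peaks (circles, with 95% Wilson intervals) and of all autosomal peaks (diamonds) with no overlapping peak in the other list, for the 5 comparisons in both directions; the number of members is given in each label. The diamond lies inside the interval in every row except peaks closed by stress in Zbt-KD mice. The intervals treat neighbouring peaks as independent and are not tests.

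Counted in length, 22.5% of the member length in GFP CSDS was absent from GFP control, against 20.5% over all peaks, and 15.1% was lost in the reverse direction, against 6.67%. For Zbt-KD in unstressed mice the gained share was 32.6% against 21.6% and the lost share 13.4% against 6.24%. For Zbt-KD in stressed mice they were 16.3% against 13.7% and 19.9% against 10.2%. Member length was thus lost in a larger share than the length of all peaks in each of these comparisons. Stress in Zbt-KD mice gave 10.4% against 13.2% gained and 17.0% against 11.3% lost, and ZBT-OE gave 10.6% against 13.2% gained and 2.44% against 9.96% lost, and here alone members lost the smaller share.

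All lists were then brought to the coarsest grain by joining peaks across gaps under 20364 bp and dropping results under 20269 bp. The Ifi44 cluster remained opened by stress in GFP mice, with a domain of 229 kb, and domains of 26.4 kb, 25.4 kb and 30.4 kb remained opened there by Zbt-KD in unstressed mice, beside Naip6 (35.1 kb) and the chemokine receptors (144 kb). Stress in Zbt-KD mice closed Naip6, 2 of the Ifi44 domains and chemokine receptor domains of 144 kb and 42.2 kb, and it opened Cd200 (27.8 kb) and Il15 (23.6 kb). ZBT-OE opened Defb41, Ifi35, C4b, H2-Bl, Il7 (33.4 kb) and Nlrp5 (28.6 kb). Those were 6 of 15 member domains (40.0%, against 35.4% of all domains). Stress in GFP mice opened 1 of 7 (14.3%, against 25.7%), and Zbt-KD in unstressed mice 5 of 13 (38.5%, against 22.4%). Stress in Zbt-KD mice closed 5 of 13 (38.5%, against 16.2%) and opened 2 of 12 (16.7%, against 17.3%). The other comparisons closed few member domains at this grain. Zbt-KD closed 0 of 10 member domains in unstressed mice (9.69% of all domains) and 0 of 7 in stressed mice (16.2%), ZBT-OE closed 0 of 10 (12.6%), and stress in GFP mice closed 1 of 10 (11.6%), at Ccr2 (23.5 kb).

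A view that does not use the nearest-gene column gave a share close to the background. Of 359 coding genes whose symbols meet the name rule, 52 (14.5%) had a peak over their body in any list, against 13.7% of all 20807 coding autosomal genes, and 22 (6.13%) had 1 in all 6 lists, against 5.04%. With genes of any type, noncoding copies included, 69 of 409 (16.9%) had a peak over their body. Per list the numbers for coding genes were 28, 31, 31, 26, 39 and 45, in the order used throughout, against 1254, 1324, 1328, 1291, 1767 and 2544 of all coding genes. The largest shares were those of the Nlrp genes (5 of 17, 29.4%), the defensins (18 of 66, 27.3%) and the interferons with their receptors (7 of 26, 26.9%), and among families of 10 genes or more the lowest were the guanylate-binding proteins (0 of 10), interleukins (3 of 77), Klr (2 of 26) and MHC genes (3 of 34). Only 53 of the 173 member peaks overlapped the body of a gene of these families, so that most members are peaks beside such genes. Coding genes overlapped in ZBT-OE SSDS alone were Il11ra1, Ccl27a, Nlrp9b, Nlrp4e, Nlrp5, Il23a, Ifi35 and Ifnar1. That list also overlapped the most coding genes of any kind, 2544 against 1254 to 1767 in the other lists. The share of all coding genes overlapped in it alone was not computed, so these genes are not set apart from the background.

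A list of 43 immune signalling genes that are not members by name (NF-kB, interferon response, complement and antigen presentation) was overlapped in the overexpression experiment only. No gene of it was overlapped in the 4 knockdown-experiment lists, against 6.03% to 6.38% of all coding genes. In GFP SSDS 1 was (2.33%, against 8.49%), and in ZBT-OE SSDS 5 were (11.6%, against 12.2%). Over any list the share was thus close to the 13.7% of all coding genes. The 5 were Myd88, the adaptor of Toll-like receptors, Relb, an NF-kB subunit, Stat2 and Tyk2, which relay the interferon signal, and Tapbp, which loads class I MHC molecules. Relb was also the gene in GFP SSDS.

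Repeated sequence was unequal between the clusters. A sampled 31-mer occurred more than once in the genome in 13.5% of positions outside peaks, 34.6% within all peaks and 40.3% within member peaks. Within single lists the member share lay between 44.4% and 55.7%, against 36.1% to 41.8% for all peaks. The excess rested on the alpha-defensins: without their cluster, 32.5% remained in member peaks, below the 34.6% of all peaks, and 33.2% to 37.9% within single lists. By cluster, it ran from 90.0% at the alpha-defensins, 79.3% at H2-Q6, 78.3% at Ccl28 and 65.1% at Naip6 down to 22.3% at Ifnb1, 19.2% at Ifi44, 18.3% at the chemokine receptors, 13.8% at Ifi35 and 9.59% at Cd200. Ifi35 and Cd200 thus lay near and below the level outside peaks, and the interferon and chemokine receptor clusters between that level and that of all peaks. Of 13 alpha-defensin promoters in a peak, 11 were at least 90% identical to another one. For 7 promoters of the interferon group, with the receptor gene Ifnar1 among them, the median identity to the closest relative was 74.3%. The promoters outside peaks were as similar or more so, with 3 of 3 alpha-defensins at 90% or above. The median was 84.7% for 9 promoters of the interferon group, with the receptor gene Ifnar2 among them. The part of repeated sequence in the presence of peaks was not tested.

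**Figure D5:**
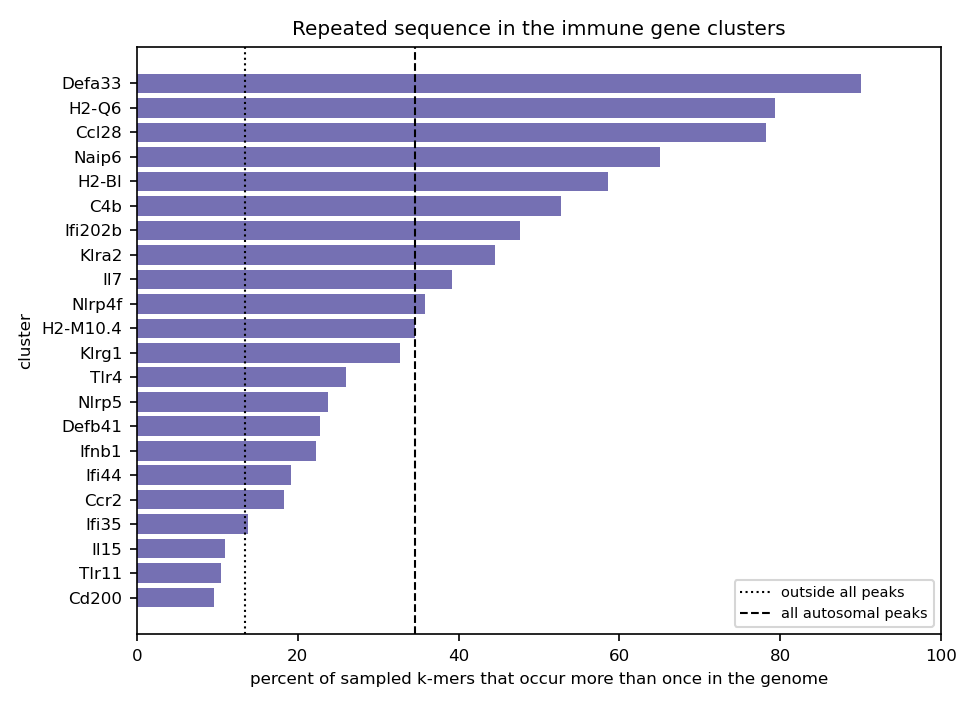
Percent of k-mers (31 bases long) sampled in each cluster that occur more than once in the genome (bars, x axis from 0 to 100%), with the level outside all peaks (dotted line, 13.5%) and in all autosomal peaks (dashed line, 34.6%). Bars run from 90.0% at the alpha-defensins to 9.59% at Cd200, and the interferon, Ifi44, chemokine receptor and Cd200 clusters lie below the dashed line.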

How the data were processed

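The 6 deposited lists of annotated peaks (mm10) were analysed, 1 per group. Per the study's methods, the authors aligned reads with HISAT2 at default settings, kept uniquely mapped reads, removed duplicates with SAMtools and called peaks with MACS 2.1. The fold enrichment in the deposited lists is the authors' ratio of signal to background and is compared within a list. The q-value in the deposited lists is the authors' linear value, at most 0.000234, while the methods state an FDR below 0.05. How samples were combined, and why peak width differs by list, is not given in the sources used here. No read numbers are given, so the depth is unknown. The annotation columns resemble those of HOMER.

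The members and gene lists were chosen with earlier results of these data known. Peaks overlapped when they shared 1 bp or more. Coordinates were used as the files give them, genes came from GENCODE and promoter windows from RefSeq, both on GRCm38. Named genes were those nearest a peak in all 6 lists, the 3 opened and the 3 closed peaks of highest fold enrichment per comparison, the widest region per family, genes within 10 kb of a peak centre or with a TSS in every list, and C4a, C4b, Cd200, Cd200r1 to Cd200r4, H2-T23 and Cxcl12; those outside this rule were named after their values were seen, and 1 gene of the chemokine receptor cluster is not reported here. Scripts ran in Python 3.11.15 with pandas 2.3.3, scipy 1.17.1, numba 0.67.0 and Biopython 1.88 and were tested on simulated data. Alternatives were a 50% overlap, peaks in the upper 50% of fold enrichment, gene bodies or TSS in place of nearest genes, 1 grain for all lists and names without shared letters.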

Additional observations from a re-analysis of the deposited data

How the results depend on the processing

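Of 63 alternative values, 40 stayed within the counting interval of the reported value (within 1.5 times, for the number of genes overlapped) and 23 moved out of it, none by requiring a 50% overlap, by leaving out names that share letters or by using the TSS in place of the gene body. Shares over all peaks under the same setting are in parentheses. With members taken by gene body overlap, the share of autosomal peaks was 0.645%, regions in all 6 lists 40.0% (21.7%), opened and closed by stress in GFP mice 26.7% (48.2%) and 17.6% (29.2%), opened and closed by Zbt-KD in unstressed mice 26.7% (31.0%) and 5.88% (28.8%), and closed by Zbt-KD in stressed mice 13.3% (38.3%). With all lists at 1 grain, regions in all 6 lists were 39.1% (33.8%), opened and closed by stress in GFP mice 14.3% (25.7%) and 10.0% (11.6%), closed by Zbt-KD 0% (9.69%) in unstressed and 0% (16.2%) in stressed mice, opened by Zbt-KD in stressed mice 16.7% (13.6%), opened by stress in Zbt-KD mice 16.7% (17.3%), and closed by ZBT-OE 0% (12.6%). With the upper 50% of peaks by fold enrichment, regions in all 6 lists were 40.0% (24.9%), closed by stress in GFP mice 14.3% (29%), opened and closed by Zbt-KD in unstressed mice 27.3% (13.6%) and 17.1% (37.3%), opened and closed by Zbt-KD in stressed mice 14.3% (7.49%) and 72.0% (45.6%), opened by stress in Zbt-KD mice 14.3% (17.2%) and opened by ZBT-OE 14.3% (21.7%). Chosen after seeing the data, leaving out GFP control gave 17 Klr peaks of 52 and an L1 share of 26.9% (28.7%), and leaving out the alpha-defensins gave 32.5% repeated 31-mers (34.6%). Fewer peaks enter each of these settings by construction. No paired analysis was possible because each group has 1 list for all its samples. Leaving out a replicate could not be run for the same reason, and depth is unknown. A peak narrower than a list's own limit cannot appear in it, which held for 8 of 18 members closed by stress in GFP mice, 18 of 18 closed by Zbt-KD in unstressed mice and 13 of 18 in stressed mice.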
